A study of Homo sapiens with 11 samples.

Results

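IRX1, IRX2, IRX3, IRX4 and IRX5, the Iroquois homeobox genes, and MASP1, a serine protease gene, are described here across 3 cultures of heart cells grown from H9, a human embryonic stem cell line. These 6 genes, of 36601 in the count matrices, were taken by their symbols. They were chosen by their measured levels in these cultures and in cells with and without MYL2 RNA, so every level and ratio below is a description and carries no test. Stable chambered cardioids, which are organoids with heart chambers, were grown with PD173074 in 3 libraries and without PD173074 in 5 libraries, and 3 further libraries came from H9 cells in 2D culture. PD173074 is an inhibitor of fibroblast growth factor receptor kinases; its dose and the days of exposure are not given in the sources used here. All cells were collected on day 42.5, and the 3 groups share the cell line. A 3-prime droplet method counted unique molecular identifiers (UMIs), of which each tags 1 captured RNA molecule.

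Iroquois proteins are homeodomain transcription factors of the TALE class, which also holds the MEIS, PBX and TGIF proteins. In vertebrates the genes lie in 2 genomic clusters, and neighbours within a cluster are often expressed together. IRX4 is known as a ventricle-restricted factor in the chick, mouse and human heart, where chick Irx4 favours ventricular and represses atrial myosin genes. In the mouse, Irx3 takes part in the ventricular conduction system and Irx5 in the gradient of repolarization across the ventricular wall; Irx1 and Irx2 are expressed in the ventricular septum. MASP1 encodes a protease of the lectin pathway of complement, made mainly by liver, and its splice form MASP-3 matures complement factor D. MYL2 encodes the ventricular myosin regulatory light chain and is a common marker of ventricular heart muscle cells.

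In the GENCODE annotation of GRCh38, all 6 genes are protein-coding. IRX4 lies at chr5:1877413-1887236 on the minus strand, IRX2 at chr5:2745845-2751662 on the minus strand and IRX1 at chr5:3596054-3601403 on the plus strand. IRX3 lies at chr16:54283304-54286763 on the minus strand and IRX5 at chr16:54930862-54934485 on the plus strand. MASP1 lies at chr3:187217285-187292022 on the minus strand, and MYL2, which was used only to divide cells, at chr12:110910819-110920722 on the minus strand. Close neighbours on the opposite strand are C5orf38, which starts 468 bases from IRX2, and CRNDE, a long non-coding RNA gene that lies 1672 bases from IRX5. RefSeq promoter windows of GRCh38.p14, from 250 bases before a start to 50 after it, were found for 4 of the 6 genes, in 6 entries; IRX3 and IRX5 are named only. Windows of 3 genes that were low together with PD173074 are shown, each read along its gene on the minus strand, so that the letters behind the motif counts can be seen. The IRX2 window is at chr5:2751628-2751927, the IRX4 window at chr5:1882876-1883175 and the MASP1 window at chr3:187291688-187291987. Capitals in the IRX2 window mark the 35 bases that lie inside the RefSeq gene IRX2-DT, which is C5orf38 under its newer name and starts 215 bases away from IRX2. Capitals in the other 2 windows mark matches to a motif given after them.
IRX2: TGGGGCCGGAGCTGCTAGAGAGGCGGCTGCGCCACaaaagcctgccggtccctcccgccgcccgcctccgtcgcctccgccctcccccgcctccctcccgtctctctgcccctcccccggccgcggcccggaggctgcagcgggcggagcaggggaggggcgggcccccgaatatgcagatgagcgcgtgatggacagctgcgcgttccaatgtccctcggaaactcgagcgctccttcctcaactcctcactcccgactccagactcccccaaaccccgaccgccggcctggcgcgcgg
IRX4: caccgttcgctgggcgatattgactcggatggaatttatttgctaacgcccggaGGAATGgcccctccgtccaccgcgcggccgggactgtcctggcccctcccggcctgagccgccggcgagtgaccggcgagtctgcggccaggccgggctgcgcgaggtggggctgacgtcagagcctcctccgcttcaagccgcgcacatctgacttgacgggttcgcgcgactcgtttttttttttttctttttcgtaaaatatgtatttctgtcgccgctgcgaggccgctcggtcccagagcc
MASP1: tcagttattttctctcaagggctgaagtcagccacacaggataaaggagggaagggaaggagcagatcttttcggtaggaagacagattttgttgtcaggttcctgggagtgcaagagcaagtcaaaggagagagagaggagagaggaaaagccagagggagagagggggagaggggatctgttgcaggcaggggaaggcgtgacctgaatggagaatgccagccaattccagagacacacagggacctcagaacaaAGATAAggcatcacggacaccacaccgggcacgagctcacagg
Motif searches on both strands used ACANNTGT for the Iroquois core, AGATAA for GATA factors, GGAATG for TEAD factors and GGTGTGA for T-box factors, and no motif overlapped another. The IRX4 window shown held 1 TEAD match and the MASP1 window 1 GATA match. The IRX2 window, the IRX1 window and the other 2 IRX4 windows had no match to the 4 motifs, which says only that these letters are not in those windows. Of all 35116 promoter windows, 5.62% held the Iroquois motif, 10.3% the GATA motif, 14.0% the TEAD motif and 3.45% the T-box motif. The share of G and C was 53% in the MASP1 window, 73.3% in the IRX2 window, 76% in the IRX1 window and between 63% and 79.7% in the IRX4 windows.

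Libraries of 1 group held the same droplets: they shared between 99.3% and 99.9% of their barcodes, against between 0.195% and 0.737% between groups. They were therefore treated as runs of 1 sample and averaged, which leaves 1 sample for each group, no replicate error and no test; 95% intervals cover counting error only. Run totals were between 36127841 and 37765195 UMIs with PD173074, between 12266166 and 24495291 without PD173074, where the third run was the shallowest, and between 43908067 and 46304366 in 2D culture. Cells kept numbered 4597 with PD173074, 3534 without PD173074 and 8183 in 2D culture. Of 15 clusters made without MYL2 and the 6 genes, 10 were cardiomyocyte-like by TNNT2, ACTN2, TTN and the other listed markers, and they held 3395 cells (73.9%), 3146 cells (89.0%) and 7237 cells (88.4%) of those samples, in the same order. In the culture without PD173074, 1070 cardiomyocyte-like cells (34.0%) lay in clusters of which over 80% came from another sample; the corresponding numbers were 62 (1.83%) with PD173074 and 84 (1.16%) in 2D culture. Between 7 and 11 shared barcodes were counted per pair of samples, among barcodes found in every run of a sample. Results are given with and without the cells of such clusters where this touches them, and levels are a gene's UMIs per 1000000 UMIs of the cell set (CPM).

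All 5 Iroquois genes and MASP1 were lowest in cardiomyocyte-like cells of the PD173074 culture, and the other 2 samples lay close to each other. A gene was called different when the higher set had at least 10 CPM and the whole 95% interval of the ratio lay beyond 1.5-fold. IRX4 had 14.8 CPM with PD173074, 88.5 CPM without PD173074 and 67.8 CPM in 2D culture. Its runs spanned 14.4 to 15.4 CPM, 84.6 to 91.2 CPM and 66.2 to 70.2 CPM in those samples. The log2 ratio was -2.58 with PD173074 against without it (95% interval -2.75 to -2.41) and -2.20 against 2D culture (-2.36 to -2.03). IRX3 had 7.96 CPM with PD173074, 53.5 CPM without PD173074 and 67.2 CPM in 2D culture, and its log2 ratios for the PD173074 culture were -2.75 and -3.08. IRX2 had 5.49 CPM with PD173074, 39.4 CPM without PD173074 and 31.9 CPM in 2D culture, with log2 ratios of -2.84 and -2.54. Runs of a sample are of the same droplets, so the spread of runs carries no replicate error for any of these genes. IRX5 had 3.93 CPM with PD173074, 22.7 CPM without PD173074 and 20.2 CPM in 2D culture, with log2 ratios of -2.53 and -2.36. IRX1 was sparse, with 0.343 CPM (8 UMIs) with PD173074, 9.92 CPM (178 UMIs) without PD173074 and 7.03 CPM (248 UMIs) in 2D culture. Its log2 ratio with PD173074 against without it was -4.85 (-6.09 to -3.84). It stayed under 10 CPM in every sample and so could not be called.

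MASP1 had 4.85 CPM with PD173074, 153 CPM without PD173074 and 178 CPM in 2D culture, and its runs spanned 4.48 to 5.12 CPM, 147 to 175 CPM and 175 to 179 CPM in that order. Its level was 31.6-fold higher without PD173074 than with it, a log2 ratio of -4.98 for the PD173074 culture (-5.27 to -4.71), and 36.7-fold higher in 2D culture (-5.20, -5.48 to -4.93). In the PD173074 culture, 40.7% of the MASP1 UMIs of cardiomyocyte-like cells came from the 62 cells in clusters made mostly of another sample, where MASP1 was at 110 CPM, against 2.93 CPM in the other 3333 cells. Of its 113 UMIs, 38 came from the 5 cells of cluster 0, led by GRIA4, which averaged 41564 UMIs per cell, against 6817 in the other cells, and had MASP1 at 183 CPM. Without those 5 cells, left out after the values were seen, MASP1 was at 3.25 CPM and its log2 ratio to the culture without PD173074 was -5.56 (-5.91 to -5.23); IRX4 was at 14.4 CPM and its ratio -2.62. Those 62 cells held between 6.25% and 10.6% of the UMIs of each Iroquois gene. Without the cells of such clusters in any sample, the log2 ratio of MASP1 was -5.71 against the culture without PD173074 and -5.93 against 2D culture, and that of IRX4 was -2.92 and -2.28. The clusters left out differed by sample: 0, 1 and 2 with PD173074, and 0, 1, 3, 7 and 11 without PD173074. Clusters 3, 7 and 11 had IRX4 at 4.27 CPM and MASP1 at 3.62 CPM without PD173074. They were left out there but kept for the PD173074 culture, so these ratios compare unlike sets of clusters.

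With PD173074 against without it, all 5 genes of the 6 that reached 10 CPM were called lower, beside 4.62% of the 10582 genes measured at that level. Against 2D culture, the same number was called lower, beside 6.48% of 10656 genes; the 2 comparisons share the PD173074 sample, and the genes had been chosen for this contrast. Without PD173074 against 2D culture, 0 of the 5 genes were called in either direction, beside 3.25% of 10416 genes. There the log2 ratio was 0.50 for IRX1, 0.31 for IRX2, -0.33 for IRX3, 0.38 for IRX4, 0.17 for IRX5 and -0.22 for MASP1. Without the cells of clusters made mostly of another sample, these became 0.77, 0.52, -0.46, 0.64, 0.20 and -0.22. Within the culture without PD173074, those cells differed from the rest for some members: IRX4 was at 54.8 CPM in them and 104.6 CPM in the others, IRX2 at 27.4 and 45.2 CPM, and MASP1 at 154 and 153 CPM. Those cells pool unlike clusters. In clusters 0 and 1, IRX4 was at 66.9 and 93.0 CPM and MASP1 at 207 and 210 CPM. In clusters 3, 7 and 11 together, IRX4 was at 4.27 CPM and MASP1 at 3.62 CPM.

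**Figure D1:**
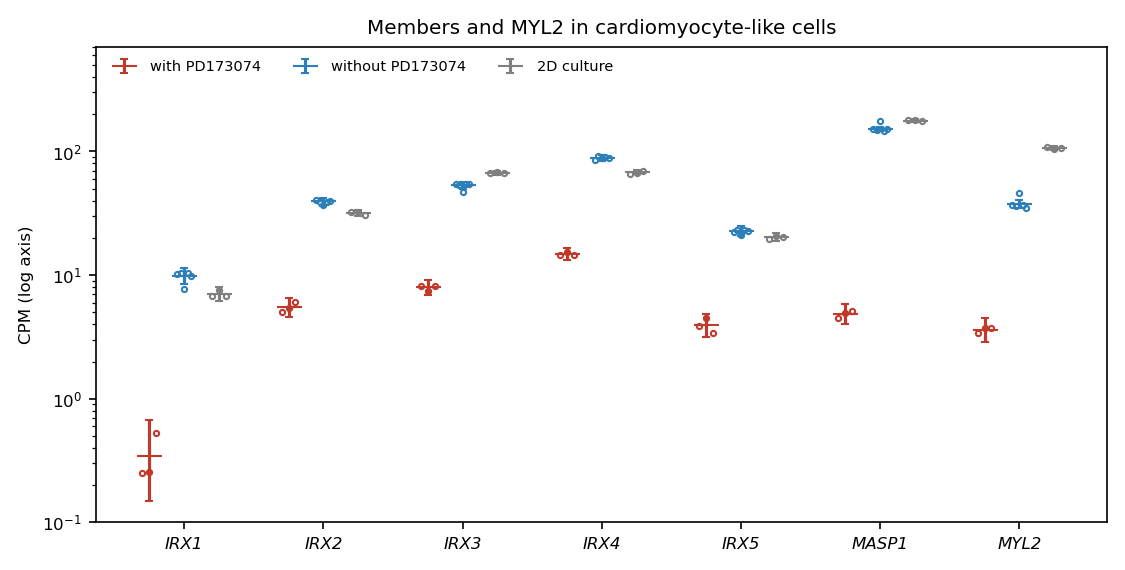
Levels of the 6 genes and MYL2 in cardiomyocyte-like cells, as CPM on a log axis, for the cultures with PD173074 (red), without PD173074 (blue) and in 2D (grey); dashes are means over runs with 95% counting intervals, and open circles are runs. All 6 genes sit lowest with PD173074, and MASP1 is at 4.85 CPM there against 153 and 178 CPM.

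The share of cells with a UMI gave the same order at equal depth. After every cell was thinned to 2000 UMIs, IRX4 was seen in 2.59% of cardiomyocyte-like cells with PD173074, 15.7% without PD173074 and 13.3% in 2D culture; unthinned, the shares were 6.96%, 33.8% and 26.4%. Any of the 5 Iroquois genes was seen in 5.52%, 31.8% and 31.3% of thinned cells of those samples, and MASP1 in 0.807%, 23.7% and 28.3%. Free RNA in droplets gives such UMIs to cells that do not make them. In thinned stromal-like and cartilage-like cells pooled, IRX4 was seen in 0.168% with PD173074, 1.22% without PD173074 and 2.09% in 2D culture, and MASP1 in 0.897%, 3.38% and 6.23%. Their median depths before thinning were 8169, 6131 and 9338 UMIs, against 5892, 4977 and 4096 UMIs in the cardiomyocyte-like cells. In the PD173074 culture the MASP1 share of cardiomyocyte-like cells was thus no higher than in stromal-like and cartilage-like cells pooled (0.897%, exact 95% interval 0.305% to 2.03%), while the IRX4 share was above theirs. In thinned epithelial-like cells of that culture MASP1 was seen in 0.173% (0.00439% to 0.962%).

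Division by MYL2 separated the samples in another way. Cardiomyocyte-like cells with at least 1 MYL2 UMI numbered 38 to 44 per run with PD173074, 69 to 110 without PD173074 and 599 to 608 in 2D culture. The cut lies in a sparse range: 65, 216 and 998 cells had a MYL2 UMI in some run and 15, 21 and 283 in every run. MYL2 itself averaged 225, 830 and 1098 CPM in the cells with a UMI. In the third run without PD173074 it was at 1723 CPM, against 705 to 823 CPM in the other runs of that sample. These cells were deeper than the rest, with median UMIs of 8033 against 5872 with PD173074, 6216 against 4936 without PD173074 and 4687 against 4060 in 2D culture. The part of depth in the differences below was not tested beyond the thinned values.

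In the cultures without PD173074 and in 2D, none of the 6 genes was called different between cells with and without MYL2. Without PD173074, IRX4 had 92.8 CPM in cells with MYL2 and 88.3 CPM in cells without it, a log2 ratio of 0.07 (-0.28 to 0.41). MASP1 had 184 and 152 CPM there (0.28, 0.03 to 0.52), IRX3 67.4 and 52.8 CPM (0.35, -0.07 to 0.75), IRX5 30.6 and 22.3 CPM (0.46, -0.19 to 1.04) and IRX2 35.6 and 39.6 CPM (-0.16, -0.75 to 0.38). IRX1 had 9.14 CPM in cells with MYL2 and 9.96 CPM in cells without it. None of the 5 genes at 10 CPM was called, beside 0.62% of 10487 genes.

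In 2D culture, where the division rests on the most cells, IRX4 had 75.0 CPM in cells with MYL2 and 67.1 CPM in cells without it (log2 ratio 0.16, -0.03 to 0.35). MASP1 had 166 and 179 CPM (-0.11, -0.24 to 0.01), IRX3 62.8 and 67.7 CPM (-0.11, -0.32 to 0.09), IRX2 28.6 and 32.3 CPM (-0.18, -0.49 to 0.12) and IRX5 16.5 and 20.6 CPM (-0.32, -0.74 to 0.07). IRX1 had 4.08 CPM in cells with MYL2 and 7.35 CPM in cells without it (-0.85, -1.74 to -0.07). Again 0 of 5 genes were called, beside 1.72% of 10313 genes. The intervals bound any difference in IRX4 and MASP1 between cells with and without a MYL2 UMI there to less than 1.5-fold, at counting error. Of the cells with MYL2 there, 357 on average held only 1 MYL2 UMI. A MYL2 UMI was also seen in 6.82% of stromal-like and 2.93% of cartilage-like cells of 2D culture. Without PD173074 these shares were 3.94% and 0.261%. The part of free MYL2 RNA in the division was not tested. Read the other way, the share of cells with an IRX4 UMI that also had a MYL2 UMI was 8.18% with PD173074, 4.08% without PD173074 and 10.3% in 2D culture (95% interval 8.96% to 11.7%). Among all cardiomyocyte-like cells the shares with a MYL2 UMI were 1.24%, 3.08% and 8.34%. Both sets of shares are at full depth, and the part of depth in their difference was not tested.

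In the PD173074 culture, by contrast, the few cells with MYL2 held more IRX2, IRX3, IRX4 and MASP1 than the other cells. IRX4 had 88.9 CPM in cells with MYL2 and 13.6 CPM in cells without it (log2 ratio 2.71, 2.15 to 3.23). IRX3 had 42.7 and 7.40 CPM (2.53, 1.69 to 3.27), IRX2 23.997 and 5.19 CPM (2.21, 1.05 to 3.18), MASP1 20.4 and 4.59 CPM (2.15, 0.87 to 3.21), and IRX5 11.6 and 3.81 CPM (1.60, -0.21 to 2.96). Of 5 genes at 10 CPM, 4 were called higher, beside 1.4% of 10591 genes called higher and 1.47% called lower; this contrast was known when the genes were chosen. Without the cells of clusters made mostly of another sample, MASP1 had 20.5 CPM in cells with MYL2 and 2.65 CPM in cells without it (2.95, 1.61 to 4.06), and IRX4 90.2 and 12.6 CPM. The ratios over all these cells rest on between 4.33 and 33.3 UMIs per gene in the cells with MYL2, and IRX1 had 0.333 UMIs there. After thinning to 2000 UMIs, which left 13.3 cells with MYL2, 1 of the genes was called (IRX4), and after thinning to 1000 UMIs, 0. At 2000 UMIs the log2 ratio of IRX3 was 0.58 with an interval from -14.3 to 4.34, so that gene's difference was not detectable at that depth. At 2000 UMIs, IRX4 was seen in 27.5% of cells with MYL2 (exact 95% interval 7.45% to 57.8%) and 2.48% of cells without it.

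The level of IRX4 in these rare cells lay near that of the MYL2 cells of the other samples, and that of MASP1 did not. Among cells with MYL2, IRX4 was at 88.9 CPM with PD173074, 92.8 CPM without PD173074 and 75.0 CPM in 2D culture; the log2 ratio of the PD173074 culture was -0.06 (-0.70 to 0.54) against the culture without PD173074 and 0.24 (-0.32 to 0.77) against 2D culture. MASP1 was at 20.4, 184 and 166 CPM, with log2 ratios of -3.17 (-4.44 to -2.13) and -3.02 (-4.27 to -2.01). IRX3 was at 42.7, 67.4 and 62.8 CPM and IRX2 at 23.997, 35.6 and 28.6 CPM, and both intervals of both genes included 0. Among cells without MYL2, the levels nearly equalled those of all cardiomyocyte-like cells, with IRX4 at 13.6, 88.3 and 67.1 CPM and MASP1 at 4.59, 152 and 179 CPM.

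**Figure D2:**
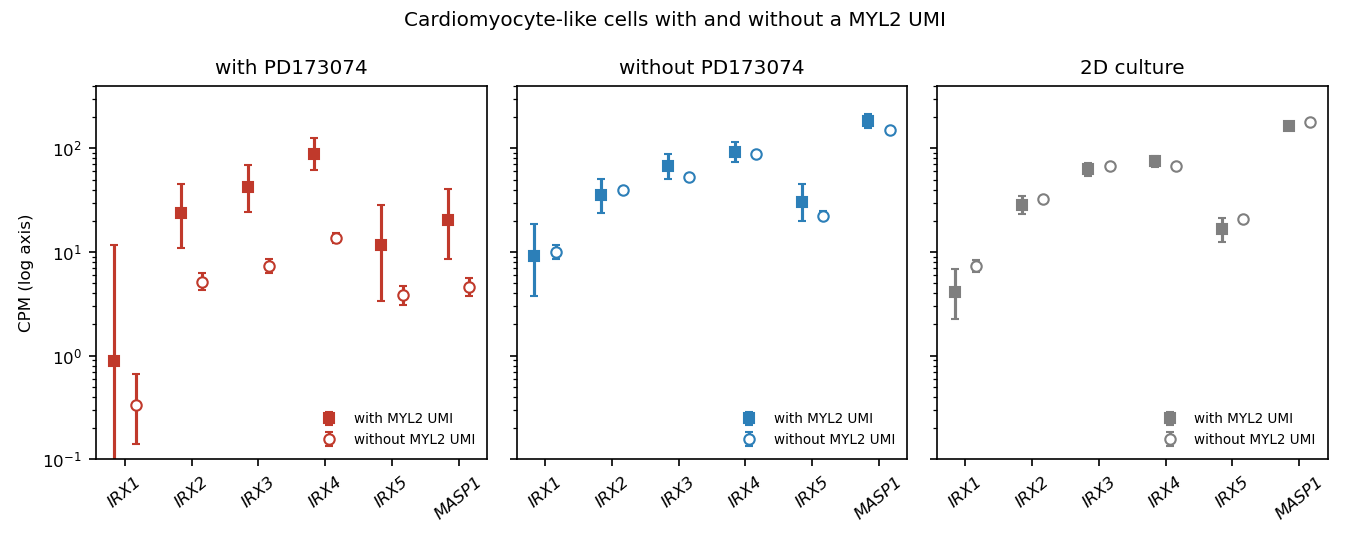
CPM on a log axis of each gene in cardiomyocyte-like cells with a MYL2 UMI (filled squares) and without one (open circles), in 1 panel per sample, with 95% counting intervals; the lower end of the IRX1 interval with PD173074 runs below the axis. Squares and circles lie close together without PD173074 and in 2D culture, except for IRX1 in 2D culture, where the square is lower. With PD173074, IRX4 is at 88.9 CPM in squares and 13.6 CPM in circles.

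Other muscle genes differed with MYL2 in all 3 samples. MYH7, the slow myosin heavy chain of ventricle, had 159 CPM in cells with MYL2 and 10.4 CPM in cells without it with PD173074, 475 and 19.7 CPM without PD173074, and 942 and 47.0 CPM in 2D culture. LMOD2, a leiomodin that lengthens actin filaments, was also among the 10 genes with the largest ratio in each sample. HEY2, a repressor found in compact ventricular muscle, had 49.8 and 3.37 CPM with PD173074. Of the ventricular list without MYL2, 5 of 10 genes at 10 CPM were called higher in the MYL2 cells with PD173074, 2 of 11 without PD173074 and 2 of 11 in 2D culture, with medians on the log2 scale of 1.08, 0.54 and 0.20 against -0.03, -0.04 and -0.06 over all genes. Of all genes at 10 CPM, 1.4%, 0.362% and 1.52% were called higher in those samples. Of the atrial list, 3 of 8 were called lower with PD173074, beside 1.47% of all genes, among them NPPA, the atrial natriuretic peptide gene, at 1.78 and 115 CPM, and NR2F1, an atrial nuclear receptor gene, at 5.33 and 73.4 CPM. In 2D culture NPPA went the other way, at 57.4 CPM in cells with MYL2 and 8.29 CPM in cells without it. Markers of other cell types did not follow one direction. The 9 stromal markers summed to 679 CPM in cells with MYL2 and 583 CPM in cells without it with PD173074, with DPT at 0 in the cells with MYL2, and the 7 smooth muscle markers to 1559 and 2847 CPM. Endothelial markers summed to 132 and 59.0 CPM, with 6 of 9, among them CDH5, PECAM1 and VWF, at 0 in the cells with MYL2, and epithelial markers to 102 and 97.6 CPM; their part in the result was not tested.

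In 2D culture the levels of IRX2, IRX3, IRX5 and MASP1 were lowest in cells with the most MYL2 UMIs. IRX3 had 67.7 CPM at 0 MYL2 UMIs, 75.8 CPM at 1, 63.4 CPM at 2 to 4 and 34.1 CPM at 5 or more (95% interval 23.1 to 48.5). IRX5 had 20.6, 19.98, 20.7 and 6.30 CPM over the same bins, and IRX2 had 32.3, 35.7, 22.5 and 17.0 CPM. MASP1 had 179, 181, 181 and 123 CPM (last bin 102 to 149). At full depth the last bin, of 139 cells on average, lay below the first by more than counting error for all 4 genes. IRX4 had 67.1, 77.9, 77.2 and 67.5 CPM. MYH7 had 47.0, 222, 1039 and 2444 CPM. After thinning to 2000 UMIs, the last bin had 75 cells. MASP1 was at 84.4 CPM (44.5 to 145) in it and 180 CPM (173 to 188) in the first, so its intervals stayed apart. Those of IRX3 overlapped, at 35.6 CPM (12.1 to 80.9) and 69.7 CPM (65.1 to 74.5). The intervals of IRX2 overlapped too, at 13.3 CPM (1.61 to 48.2) and 31.7 CPM (28.6 to 34.9). So did those of IRX5, at 6.67 CPM (0.169 to 37.1) and 21.4 CPM (18.9 to 24.2). IRX4 was at 68.9 CPM (33.5 to 125) in the last thinned bin. In the culture without PD173074 the last bin had only 17 cells, where IRX3 was at 51.8 CPM (20.5 to 108) and MASP1 at 116 CPM (65.0 to 190).

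**Figure D3:**
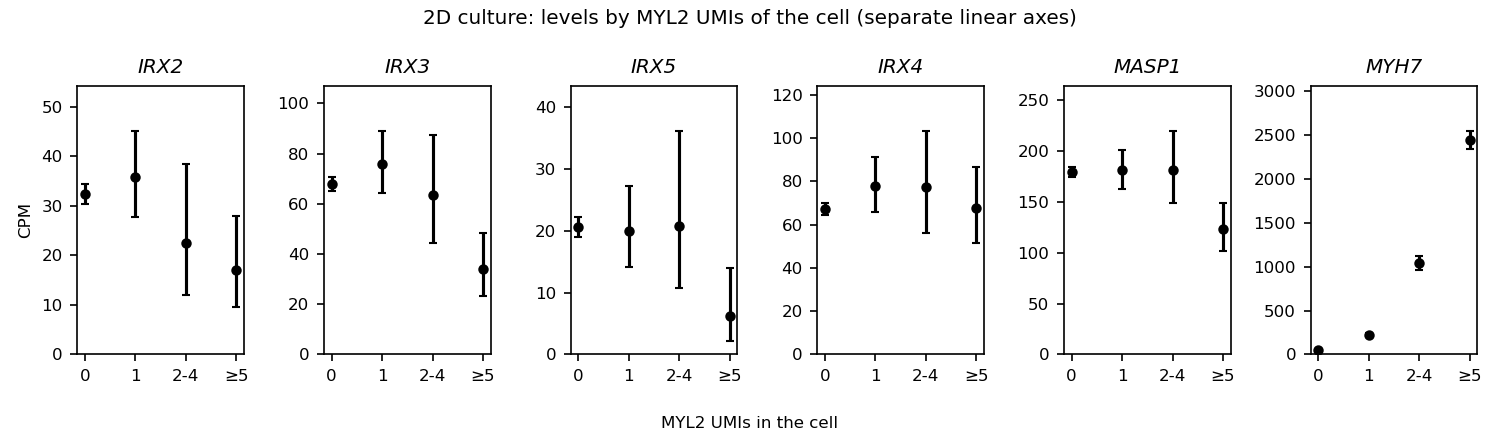
CPM of 5 members and MYH7 in 2D cardiomyocyte-like cells by the number of MYL2 UMIs in the cell (0, 1, 2 to 4, 5 or more), with 95% counting intervals and a separate linear axis from 0 for each gene. IRX3 is at 34.1 CPM in the last bin against 67.7 CPM in the first, while IRX4 is at 67.5 and 67.1 CPM.

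Within the PD173074 culture the Iroquois genes were spread unevenly over cardiomyocyte-like clusters. The clusters were made without MYL2 and the 6 genes but with genes that vary alongside them, and were grouped after their values were seen, so the values are a description. Cluster 3, with OPCML, NPPA and NR2F1 among its leading genes, cluster 7, led by FGF12, and cluster 11, led by ADARB2 and SHOX2, a sinus node factor gene, together held 2241 of 3395 cells (66.0%) with PD173074, 389 of 3146 (12.4%) without PD173074 and 10 of 7237 (0.138%) in 2D culture. In these clusters IRX4 was at 2.25 CPM with PD173074 and 4.27 CPM without PD173074, IRX3 at 4.05 and 5.69 CPM, IRX2 at 3.44 and 3.24 CPM, and MASP1 at 0.639 and 3.62 CPM. Both samples were thus low there. The 7 remaining clusters were filled differently by sample. With PD173074, clusters 6, 4 and 12 held 589, 326 and 161 of the 1154 cells there. Without PD173074, cluster 2 held 1365 of 2757 cells, against 15 with PD173074, and clusters 0 and 1 held 445 and 236. In 2D culture, clusters 0 and 1 held 3606 and 2054 of 7227 cells. In these 7 clusters IRX4 was at 37.99 CPM with PD173074, 96.5 CPM without PD173074 and 67.9 CPM in 2D culture, so its log2 ratio between the PD173074 culture and the culture without it was -1.34 (-1.52 to -1.17), against -2.58 over all cardiomyocyte-like cells. For MASP1 it was -3.73 (-4.02 to -3.44), with 12.6, 167 and 178 CPM. Without the 5 cells of cluster 0 in the PD173074 culture, MASP1 was at 8.19 CPM there and its log2 ratio -4.35 (-4.73 to -3.997), while IRX4 was at 37.4 CPM and its log2 ratio -1.37.

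Cluster 4 was led by MYH7, MYL2 and ANKRD1, a stress-responsive ankyrin repeat gene, and held 68.3% of the MYL2 cells of the PD173074 culture. Its 326 cells with PD173074 had IRX4 at 88.3 CPM, its 142 cells without PD173074 at 77.8 CPM and its 778 cells in 2D culture at 81.5 CPM. The log2 ratio with PD173074 was 0.18 against the culture without it (-0.25 to 0.63) and 0.12 against 2D culture (-0.16 to 0.38). IRX2 was at 20.3, 29.3 and 24.8 CPM in the same order, and IRX5 at 11.8, 15.1 and 10.5 CPM, and the intervals of their ratios included 0. IRX3 was at 25.4, 44.1 and 47.4 CPM, lower with PD173074 by more than counting error (-0.80, -1.45 to -0.13, and -0.90, -1.37 to -0.46). IRX1 was at 0.597, 8.49 and 5.28 CPM (-3.83, -8.24 to -1.06, and -3.15, -7.41 to -0.75). MASP1 was at 17.0, 87.9 and 127 CPM (log2 ratios -2.37 and -2.90), and MYL2 at 30.6, 812 and 891 CPM. In cluster 6, led by TFPI2, a protease inhibitor gene, IRX4 was at 17.9 CPM with PD173074 (589 cells), 81.9 CPM without PD173074 (302 cells) and 80.7 CPM in 2D culture (55 cells). The log2 ratio there was -2.19 (-2.64 to -1.75) against the culture without PD173074. In cluster 12, led by UBE2C, IRX4 was at 7.28 CPM with PD173074 (161 cells, 95% interval 3.68 to 12.9). Its level there was 51.6 CPM without PD173074 (135 cells, 38.2 to 68.1) and 65.6 CPM in 2D culture (172 cells, 51.4 to 82.5). IRX4 thus differed by sample within clusters 6 and 12 and not by more than counting error within cluster 4. The cluster led by PTGER3, with TBX3 and RSPO3 among its leading genes, held 1365 cells without PD173074, and IRX4 was at 119 CPM and IRX2 at 57.1 CPM in them. Its 15 cells with PD173074 had IRX4 at 110 CPM and IRX2 at 42.1 CPM, and its 74 cells in 2D culture 127 and 72.6 CPM. The log2 ratio of IRX4 there, with PD173074 against without it, was -0.11 (-1.10 to 0.72).

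**Figure D4:**
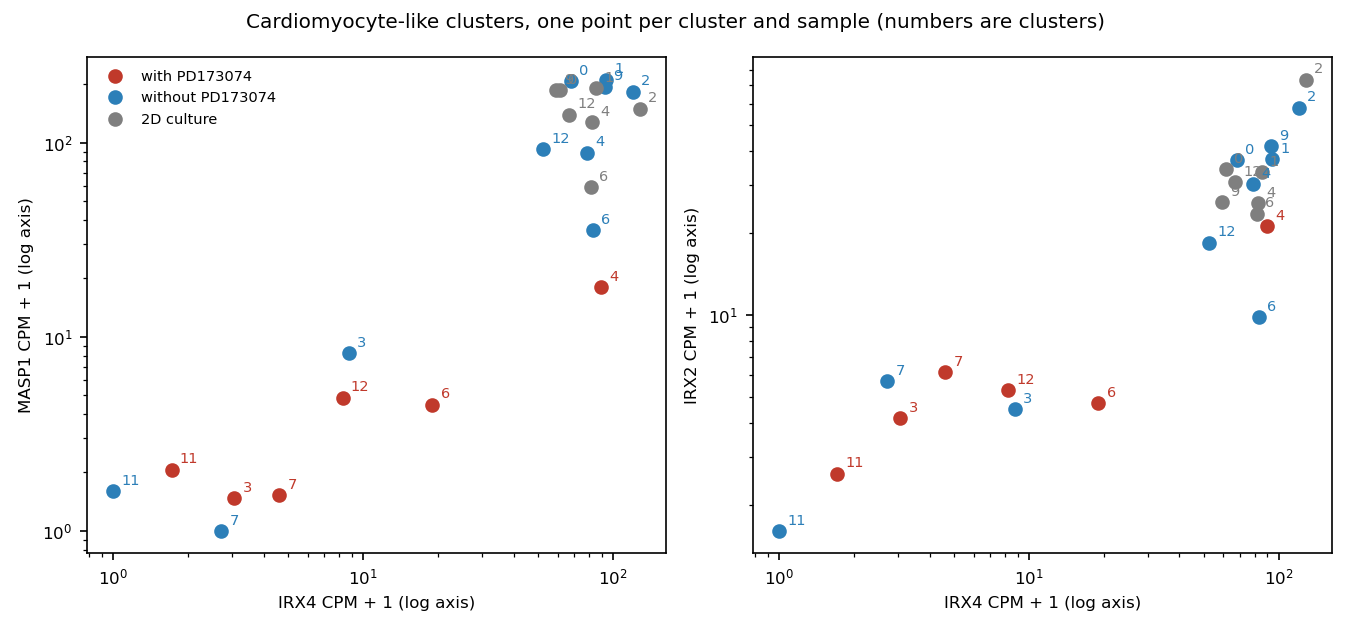
Each point is 1 cardiomyocyte-like cluster in 1 sample with at least 50 cells, with IRX4 on the horizontal axis and MASP1 (left) or IRX2 (right) on the vertical axis, as CPM + 1 on log axes; colours are samples and numbers are clusters. Cluster 4 with PD173074 has IRX4 at 88.3 CPM beside the other samples but MASP1 at 17.0 CPM below them.

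Atrial genes moved with the PD173074 culture in the other direction from the Iroquois genes. The 11 atrial genes, all detected, summed to 14441 CPM with PD173074, 6856 CPM without PD173074 and 4982 CPM in 2D culture. Of 8 at 10 CPM, 5 were called higher and 0 lower with PD173074 against without it, beside 5.31% of genes called higher, with a median log2 ratio of 1.10 against -0.07 over all genes. NR2F1 was at 72.3 and 7.53 CPM, NPPA at 113 and 22.1 CPM, and NR2F2, an atrial nuclear receptor gene, at 420 and 86.1 CPM. Of 11 ventricular genes at 10 CPM, MYL2 included, 6 were called lower and 0 higher, beside 4.62% of genes called lower. Their median log2 ratio was -0.91 against -0.07 over all genes. Among those called lower were KCNJ2, an inward rectifier channel gene, at 2.16 and 18.2 CPM, and MYL3, the ventricular essential light chain, at 34.2 and 126 CPM. The smooth muscle markers, all 7 detected, summed to 2826 CPM with PD173074, 1401 CPM without PD173074 and 1504 CPM in 2D culture, and the 9 stromal markers to 585, 233 and 262 CPM. Endothelial markers summed to 60.2, 128 and 160 CPM, with 8, 9 and 7 of 9 above 0 (TIE1 at 0 with PD173074, CDH5 and CLDN5 at 0 in 2D culture). Endoderm or epithelial markers summed to 97.7, 169 and 174 CPM, with FOXA2 at 0 in all 3 samples and VTCN1 in 2D culture. The part of these changes in the Iroquois result was not tested. HAND1, a left ventricular factor gene, was not called, with 29.8 CPM in the PD173074 culture and 24.6 CPM in the other cardioids.

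Genes beside the Iroquois genes followed them only in part. C5orf38, next to IRX2, was at 2.54 CPM with PD173074, 19.0 CPM without PD173074 and 25.9 CPM in 2D culture (log2 ratios -2.90 and -3.35 for the PD173074 culture). CRNDE, next to IRX5, was at 75.8, 207 and 216 CPM (-1.45 and -1.51). In cells with MYL2 of the PD173074 culture, C5orf38 was at 16.0 CPM and CRNDE at 169 CPM, against 2.32 and 74.2 CPM in cells without MYL2. FTO, an RNA demethylase gene whose introns act on IRX3 in other tissues, was at 128, 118 and 113 CPM, and RPGRIP1L, a cilium gene, at 19.6, 18.6 and 15.6 CPM, so neither was called. IRX6, the sixth Iroquois gene, had at most 3 UMIs in the cardiomyocyte-like cells of any sample. Of 4 neighbours at 10 CPM, 2 were thus called lower with PD173074 against without it, beside 4.62% of all genes.

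Related factors and reported partners of the Iroquois genes showed no common direction. Of 11 TALE genes at 10 CPM, 1 was called higher and 0 lower with PD173074 against without it, with a median log2 ratio of 0.01, beside 5.31% of all genes called higher and 4.62% lower; PKNOX2 was the one, at 20.1 and 10.9 CPM. Of 8 genes reported as Iroquois targets or partners in chick, mouse or human, 3 were called higher and 2 lower, beside the same shares of all genes. TBX5, a T-box factor gene, was at 303 CPM in the PD173074 culture and 173 CPM in the other cardioids, and NKX2-5, a cardiac homeobox gene, at 495 and 880 CPM. KCND2, a potassium channel gene that Irx5 represses in mouse ventricle, was at 22.9, 29.03 and 19.0 CPM over the cultures with PD173074, without PD173074 and in 2D. In cells with MYL2 of the PD173074 culture, where IRX4 was high, KCND2 was at 119 CPM against 21.3 CPM in cells without MYL2. GJA1, the connexin 43 gene, in the culture without PD173074 was at 10.4 CPM in cells with MYL2 and 0.935 CPM in the other cells, and at 25.4 and 2.87 CPM in 2D culture. Of the 15 lectin pathway and complement genes, 2 reached 10 CPM with PD173074 against without it. COLEC12, a scavenger receptor collectin gene, was at 0.986, 31.6 and 9.53 CPM over the 3 cultures, and C1S, the protease of the classical pathway, at 13.6, 10.6 and 9.63 CPM.

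Outside the cardiomyocyte-like cells the members parted by gene. In the endoderm or epithelial-like cells, IRX1 was at 60.5 CPM with PD173074 (587 cells) and 46.0 CPM without PD173074 (161 cells), and IRX2 at 57.8 and 43.0 CPM. Both exceeded their own level in cardiomyocyte-like cells of the same sample, which was 0.343 CPM for IRX1 with PD173074. IRX4 was at 5.89 and 5.20 CPM and MASP1 at 1.62 and 4.13 CPM in the epithelial-like cells. In cartilage-like cells IRX5 was at 11.1 CPM with PD173074 (598 cells), 10.7 CPM without PD173074 (153 cells) and 5.94 CPM in 2D culture (239 cells); with PD173074 this exceeded the 3.93 CPM of the cardiomyocyte-like cells. MASP1 in cartilage-like cells with PD173074 was at 7.78 CPM, likewise above the 4.85 CPM of the cardiomyocyte-like cells. In 2D stromal-like cells (704 cells), the 6 members were at between 15.7% and 32.2% of their cardiomyocyte-like level, and TNNT2, the cardiac troponin T gene, at 19.6% of its own. In cartilage-like cells with PD173074, TNNT2 was at 15.3% of its cardiomyocyte-like level, IRX4 at 5.66%, IRX3 at 75.2% and IRX5 at 282%.

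**Figure D5:**
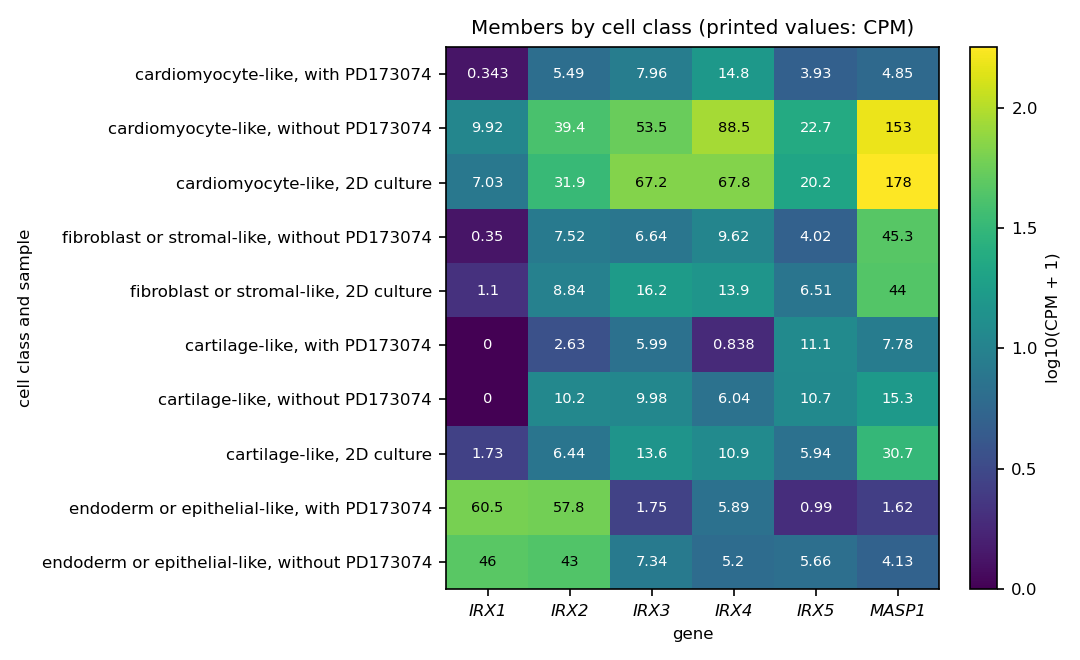
Levels of the 6 genes by cell class (rows, with the sample) and gene (columns) for classes of at least 50 cells; colour is log10(CPM + 1) and the printed values are CPM. IRX1 and IRX2 are at 60.5 and 57.8 CPM in epithelial-like cells with PD173074, while IRX4 and MASP1 are highest in cardiomyocyte-like cells without PD173074 and in 2D culture.

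In the cultures without PD173074 and in 2D, single cells with IRX1 more often held IRX2, and cells with IRX3 more often held IRX5, which are neighbours on the same chromosome. After thinning to 2000 UMIs, IRX2 was seen in 24.7% of cardiomyocyte-like cells with an IRX1 UMI (95% interval 13.4% to 39.3%) and 6.58% of cells without one in the culture without PD173074, and in 20.9% (13.0% to 30.9%) and 5.46% in 2D culture. IRX5 was seen in 9.26% of cells with an IRX3 UMI (6.10% to 13.4%) and 3.70% of cells without one in the culture without PD173074, and in 7.06% (5.39% to 9.04%) and 3.66% in 2D culture. Between the chromosomes, IRX2 was seen in 5.74% of 2D cells with an IRX3 UMI (4.25% to 7.57%) and 5.66% of cells without one. IRX4, though on chromosome 5, was seen in 14.7% of 2D cells with an IRX2 UMI (11.3% to 18.7%) and 13.2% of cells without one. MASP1 was seen in 31.6% of 2D cells with an IRX3 UMI (28.4% to 35.0%) and 27.8% of cells without one. In the culture without PD173074, MASP1 was seen in 31.5% of cells with an IRX3 UMI (26.1% to 37.4%). Among cells without an IRX3 UMI it was 22.8% (21.2% to 24.5%), so these intervals stayed apart. IRX2 was seen there in 9.12% of cells with an IRX3 UMI (5.98% to 13.2%) and 6.65% of cells without one. IRX4 was seen there in 16.7% of cells with an IRX2 UMI (11.8% to 22.6%) and 15.6% of cells without one. With PD173074, from 1.33 to 80.3 cells per gene had a UMI of an Iroquois gene at that depth, so its intervals are wide. There IRX4, which shares no chromosome with IRX3 or MASP1, was seen more often in cells with either. IRX4 was seen in 11.5% of cells with an IRX3 UMI (4.18% to 23.8%) and 2.45% of cells without one (1.93% to 3.06%). IRX4 was seen in 16% of cells with a MASP1 UMI (4.54% to 36.1%) and 2.48% of cells without one (1.96% to 3.10%).

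Across the 23 cardiomyocyte-like cluster-by-sample units of at least 50 cells, which share samples and depth, profiles of log2(CPM + 1) were compared with those of 11671 genes by Pearson's r. IRX3 was most like GRIA4, a glutamate receptor gene (r = 0.971), and MASP1 (r = 0.965), and IRX3 was the gene most like MASP1. IRX4 was most like ODAM (r = 0.969), followed by RALYL, HS3ST3A1, GRAMD1B and PRDM16-DT. IRX2 was most like ROBO2, an axon guidance receptor gene (r = 0.967), and C5orf38 (r = 0.947), IRX1 most like MID1 (r = 0.893), and IRX5 most like FAM204A (r = 0.886). MYL2 was less like the members, with r between 0.460 for IRX5 and 0.633 for IRX3. Over all 32 units, other classes included, IRX1 and IRX2 had r = 0.841, IRX3 and IRX5 r = 0.816, and IRX1 and IRX3 r = 0.313. These values did not sort by chromosome. IRX3 had r = 0.925 with MASP1 and 0.882 with IRX4, which lie on other chromosomes. IRX1 and IRX4, both on chromosome 5, had r = 0.423. Over the 23 cardiomyocyte-like units, IRX1 and IRX3 had r = 0.795.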

How the data were processed

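The authors deposited raw UMI counts per gene and barcode for 11 libraries. The submitters' processing notes name Cell Ranger 7.0.0 and hg38; which chemistry version was used is unstated in the labels. The members, gene lists and comparisons were chosen with earlier results of these data known. Barcodes in every run of a group with at least 1000 UMIs, 500 genes and at most 30% mitochondrial UMIs were kept. Clustering used scanpy 1.11.5 (2000 variable genes without MYL2 and the members, 30 components, 15 neighbours, Leiden resolution 0.6). A cluster was cardiomyocyte-like when its mean level of the marker list exceeded 0.5 of the highest cluster's; other classes needed 3 markers among leading genes. No doublet caller was used, so doublets may remain. UMIs were summed per cell set and averaged over runs, and ratios carry exact 95% intervals (Clopper-Pearson on the share), which cover counting error only. With 1 sample per group no count model or test was fitted. Single-cell counting by 3-prime ends cannot separate splice forms such as MASP-3. Named list genes are the largest called ratios per list, and some uncalled members are named as contrasts, chosen after their values were seen. Calls were tested on simulated counts. Alternatives were other scalings, floors, folds, cell filters, resolutions, cardiomyocyte definitions, MYL2 cuts, thinning, and each run left out.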

Additional observations from a re-analysis of the deposited data

Results flagged for a closer look

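The estimated ratio between cells with and without MYL2 had opposite signs in different samples for 3 members, and the differences between samples were not tested. Of these ratios, only those with PD173074 were called. The intervals of all the negative ratios spanned both signs, so no reversal was measured. IRX2 had a log2 ratio of 2.21 with PD173074, against -0.16 without PD173074 and -0.18 in 2D culture. IRX3 had 2.53 with PD173074 and -0.11 in 2D culture, and MASP1 had 2.15 with PD173074 and -0.11 in 2D culture. With PD173074, cells with MYL2 numbered 38 to 44 per run.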

How the results depend on the processing

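Outside the MYL2 division with PD173074, counts of called members stayed within 1.5 times their main value in every alternative run, and 0 called ratios reversed. With PD173074 against without it, the count was 5 to 6 lower over 22 alternatives, and against 2D culture 5 to 6 lower over 20, with 6 where IRX1 was called too, for example without a floor. Without PD173074 against 2D culture it was 0 over 21, and for the MYL2 division it was 0 over 22 alternatives without PD173074 and 0 over 20 in 2D culture. With PD173074 the MYL2 division gave 4 members at full depth, 5 with a mean over cells, 3 at a fold of 2, with at least 2 MYL2 UMIs or with MYL2 in every run, 1 after thinning to 2000 UMIs and 0 after thinning to 1000 UMIs; fewer cells with MYL2 remain by construction. Defining cardiomyocytes by 4 of 5 genes in place of clusters moved the log2 ratio of IRX1 to -1.37 against the culture without PD173074 and -0.76 against 2D culture; the cause was not tested. Leaving the 5 cells of cluster 0 out of the PD173074 culture, chosen after seeing the data, changed none of these counts. No paired analysis was possible because each group is 1 sample and its libraries are runs of the same droplets. The number of cells with MYL2 limits the PD173074 values, and 1 sample per group leaves culture, treatment and library preparation that cannot be told apart.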
